A study of Mus musculus with 6 samples.

Results

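Immunoglobulin constant genes and a small set of B and plasma cell genes were followed in alveolar macrophages, which live in the airspaces of the lung and clear particles and surfactant. The set held 10 genes of the 46078 gene rows in the count table: the heavy chain constant genes Ighg1, Ighg2b, Ighg2c, Ighm and Igha, the kappa light chain constant gene Igkc, and Jchain, Mzb1, Cd79a and Cd79b. They were picked by name, after Ighg1 and Ighg2b had been noticed as transcripts of the Cre libraries, close to 0 in the controls. The contrast between genotypes is therefore given for them as a description, with no test.

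Macrophages were sorted from the lungs of untreated mice, and polyadenylated RNA was sequenced from 3 Car4fl/fl mice (controls) and 3 Car4fl/fl-CD11cCre mice, 1 library a mouse. All 6 mice carried floxed Car4, the gene of the membrane-bound carbonic anhydrase 4, and the Cre mice also carried a recombinase driven by CD11c (Itgax), which is active in alveolar macrophages and dendritic cells. No group had Cre without floxed Car4, so Cre itself and loss of Car4 cannot be told apart. The age and sex of the mice and the sort gate were not given in the sources used here. Libraries held 53824475 to 65443314 counts, at which 3 counts equal 0.0465 to 0.0557 CPM (each count over the TMM-scaled library total in units of 1e6). Car4 was at 270 to 499 CPM in the controls and at 36.2 to 46.9 CPM in the Cre libraries. The defining macrophage genes Siglecf and Itgax were abundant in all 6 libraries, but neither overlapped between groups. Siglecf was at 662 to 751 CPM in the controls and lower, at 464 to 591 CPM, in the Cre libraries. Itgax was at 1483 to 1869 CPM in the controls and higher, at 2348 to 2577 CPM, in the Cre libraries. Adjusted p was 0.197 and 0.146 in edgeR, and 0.0109 and 5.06e-06 in DESeq2.

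An antibody is built of heavy and light chains, each with a variable part encoded by a rearranged V segment and a constant part. A naive B cell carries IgM and IgD at its surface, held by the signalling chains CD79a and CD79b. After class switching the same variable part is joined to an IgG, IgA or IgE constant gene. A plasma cell secretes antibody in bulk and makes very large amounts of immunoglobulin mRNA, so that a few such cells can be visible in the RNA of a large population. In bulk RNA, the number of such cells and the RNA in each cannot be told apart.

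The heavy chain genes lie side by side on the minus strand of chromosome 12 (GRCm38, GENCODE M21): Igha at chr12:113254830-113260236, Ighg2c at chr12:113285325-113288932, Ighg2b at chr12:113302965-113307933, Ighg1 at chr12:113325240-113330523 and Ighm at chr12:113418558-113422730. Igkc lies on chromosome 6 (chr6:70726435-70726966), Jchain on chromosome 5, Cd79a on chromosome 7, and Cd79b on chromosome 11. Because the IgG genes are close relatives, their hinge exons are shown here as a short part of the constant region, the flexible link between the arms and the stem of the antibody, by which they can be told apart. Each is exon 2 of its gene, entirely coding, read from the GENCODE transcript, 5′ to 3′. Capitals mark stretches of at least 8 bases that also occur in the hinge of one of the other 2 genes.

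Ighg1 hinge, chr12:113329844-113329882, 39 bases: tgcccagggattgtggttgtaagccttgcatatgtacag

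Ighg2b hinge, chr12:113307261-113307326, 66 bases: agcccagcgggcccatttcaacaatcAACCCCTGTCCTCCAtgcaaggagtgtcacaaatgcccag

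Ighg2c hinge, chr12:113288263-113288325, 63 bases: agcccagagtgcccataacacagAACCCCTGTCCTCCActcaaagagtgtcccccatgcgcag

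Ighg2b and Ighg2c shared 15 hinge bases in such stretches, and Ighg1 shared none. Over the secreted transcripts, 5.26% of the 50-base words of Ighg2b also occurred in Ighg2c, and none of those of Ighg1 occurred in either of the others. With 30-base words, 12.1% of those of Ighg2b occurred in Ighg2c, and 0.764% of those of Ighg1 occurred in Ighg2b. Ighg3 was not compared. Reads from the shared part of Ighg2b and Ighg2c could have been split or dropped. The strand setting and the treatment of reads with several matches were not given in the sources used here. Counts of these genes carry that uncertainty.

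IgG transcripts were nearly missing from the control macrophages and present in each Cre library, at very unequal levels. Ighg1, which encodes the IgG1 heavy chain, had 1, 0 and 0 counts in control libraries 1, 2 and 3, and 53, 484 and 2148 counts in Cre libraries 1, 2 and 3. In CPM the Cre libraries were at 0.896, 7.50 and 39.9. Ighg2b, the IgG2b heavy chain, had 3, 2 and 1 counts in the controls and 58, 1404 and 5472 counts in the Cre libraries, the latter equal to 0.980, 21.7 and 101.6 CPM. Both genes were lower in every control than in any Cre library, and all their control values were at or under the floor of 3 counts. They were thus close to 0, but not at 0, in the controls.

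Ighg2c, the IgG2c heavy chain of C57BL/6-type mice, had 1, 0 and 8 counts in the controls and 5, 551 and 1999 counts in the Cre libraries. Here the groups overlapped, because Cre library 1 lay below control library 3. Ighg2c was the single member that did not pass the filter on low counts. The other 9 passed, Ighg1 and Ighg2b only through the Cre libraries.

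Pooled over libraries, the Cre to control ratio of Ighg1 was 2680 (2685 against 1 count). For Ighg2b it was 1153 and for Ighg2c 283. Each ratio pools the reads of unequal mice and describes genes chosen on this contrast. No interval is given, because one over pooled reads would leave out the spread between mice. PCR copies are also not separate molecules. Without Cre library 3 the ratios were 769, 349 and 88.5.

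**Figure D1:**
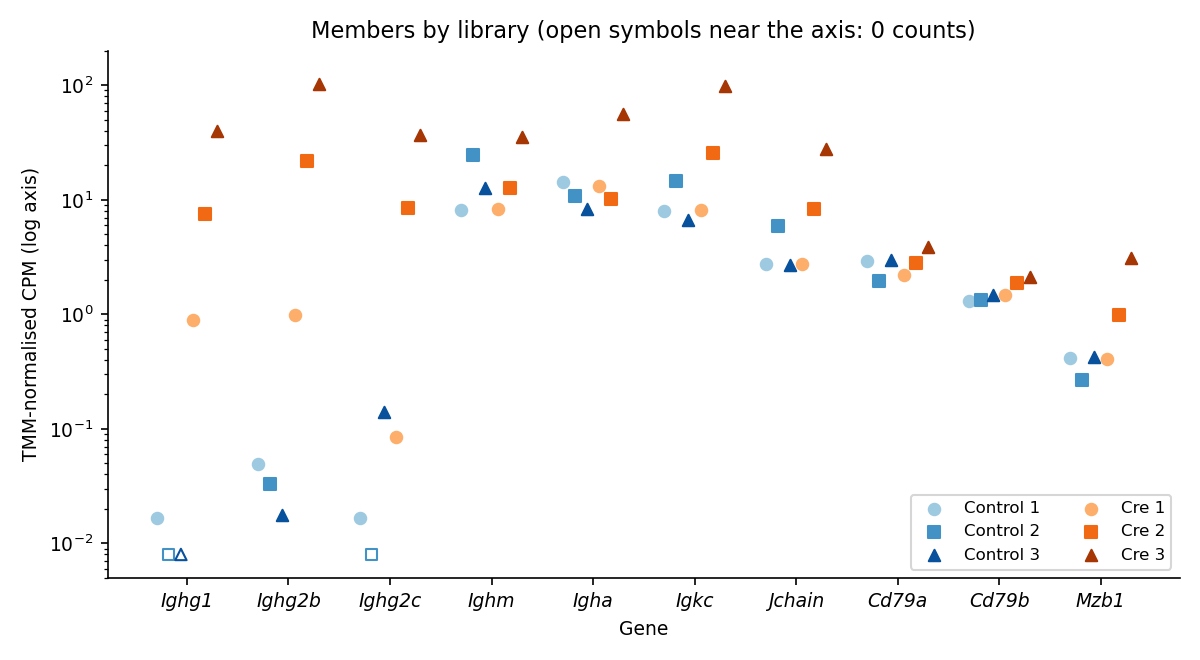
TMM-normalised CPM (log axis) of the 10 genes in each library, with controls in blue and Cre libraries in orange; open symbols near the axis are libraries with 0 counts. Ighg1 and Ighg2b separate the groups, Igkc, Jchain and Mzb1 are high in Cre libraries 2 and 3, and Cd79a lies between 1.94 and 3.86 CPM throughout.

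IgM and IgA transcripts were present in every library, controls included. Ighm, the IgM heavy chain, was at 8.08, 24.5 and 12.7 CPM in the controls and at 8.33, 12.7 and 35.1 CPM in the Cre libraries. Its log2 fold change was 0.31 ± 0.56 (SE, edgeR fit), and the groups overlapped, with control library 2 second only to Cre library 3. Without Cre library 3 the fold change turned to -0.52. Igha, the heavy chain of the mucosal class IgA, was at 14.4, 10.9 and 8.36 CPM in the controls and at 13.2, 10.1 and 56.2 CPM in the Cre libraries (log2 fold change 1.24 ± 0.61, SE). Cre libraries 1 and 2 lay within the control range, so the higher Cre mean rested on Cre library 3: the Cre mean was 26.5 ± 25.8 CPM (SD, n = 3) and 11.6 CPM without that library, against 11.2 ± 3.05 CPM (SD, n = 3) in the controls.

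The light chain and the genes of antibody assembly were high in Cre libraries 2 and 3, and Cre library 1 was like the controls. Igkc was at 7.92, 14.7 and 6.72 CPM in the controls and at 8.18, 25.8 and 98.7 CPM in the Cre libraries (log2 fold change 2.17 ± 0.79, SE). Jchain, which encodes the chain that joins IgA and IgM into polymers, was at 2.77, 5.92 and 2.69 CPM and at 2.77, 8.36 and 27.5 CPM in the same order (1.76 ± 0.74, SE). Mzb1, an endoplasmic reticulum chaperone cofactor of antibody-making cells, was at 0.415, 0.266 and 0.422 CPM and at 0.406, 0.991 and 3.10 CPM (2.02 ± 0.68, SE). For all 3 genes Cre library 1 lay within the control range and Cre libraries 2 and 3 lay above it. Without Cre library 3 the Cre means were 17.0 CPM for Igkc, 5.57 for Jchain and 0.698 for Mzb1, against control means of 9.78 ± 4.30, 3.79 ± 1.84 and 0.368 ± 0.0882 CPM (SD, n = 3).

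Cd79a and Cd79b, the signalling chains of the B cell receptor, were low and differed little. Cd79a was at 2.92, 1.94 and 2.97 CPM in the controls and at 2.20, 2.80 and 3.86 CPM in the Cre libraries (log2 fold change 0.18 ± 0.25, SE). Cd79b was at 1.29, 1.35 and 1.46 CPM and at 1.47, 1.89 and 2.12 CPM (0.42 ± 0.20, SE). The Cd79a values overlapped, and without Cre library 3 the log2 fold change was -0.062. The Cd79b values did not, although Cre library 1 lay just above control library 3.

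The groups did not overlap, with Cre higher, for 3 of the 10 genes (Ighg1, Ighg2b and Cd79b), where 8.61% of the 15147 tested genes did so. None was lower in Cre without overlap, against 9.23% of tested genes. Since the genes were chosen on this contrast, nothing is read from these counts. Without Cre library 1 the count was 7 of 10, and the share of all tested genes rose to 15%.

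Per kilobase of annotated exon, Igkc was the most abundant of the set in each library, at 12.6 to 27.6 CPM per kb in the controls and 15.4, 48.5 and 186 CPM per kb in the Cre libraries. In Cre library 3 it was followed by Ighg2b (37.9 CPM per kb), Ighg2c (28.0), Igha (21.1), Ighm (18.6), Ighg1 (15.4) and Jchain (10.9), with Cd79a, Mzb1 and Cd79b last at 2.65, 2.55 and 1.48. In the controls the heavy chains stood in another order: Ighm was at 4.29 CPM per kb in control library 1 and 6.73 in control library 3, and highest in control library 2, with Igha at 3.13 to 5.41 CPM per kb. The 3 IgG genes of the set reached at most 0.106 CPM per kb there. The control ranges of Ighm and Igha overlapped.

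The mixture of heavy chain classes differed between libraries. Of all heavy chain constant counts (Ighg1, Ighg2b, Ighg2c, Ighg3, Igha, Ighm, Ighd and Ighe), IgG made up 0.337%, 0.224% and 0.914% in control libraries 1, 2 and 3, and 7.72%, 61.8% and 66.3% in Cre libraries 1, 2 and 3. The exact 95% intervals were 0.109 to 0.784%, 0.0728 to 0.522% and 0.473 to 1.59% in the controls. In the Cre libraries they were 6.43 to 9.18%, 60.3 to 63.3% and 65.5 to 67.0%. The intervals take each read of a library as a separate draw. They leave out PCR copies and the spread between mice, so they do not compare the groups. IgA was the leading class in control library 1 (58.5%) and Cre library 1 (51.6%), and IgM in control libraries 2 (66.0%) and 3 (55.0%). IgE was at 0 to 2 counts in every library. These shares are of counts and are not corrected for gene length.

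**Figure D2:**
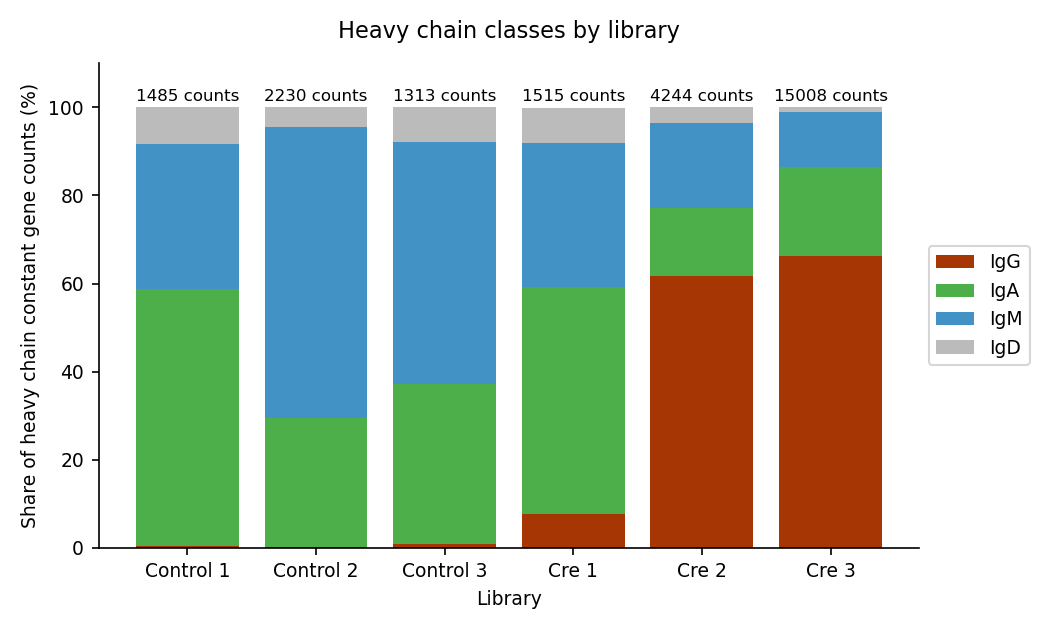
Share of heavy chain constant gene counts held by IgG, IgA, IgM and IgD in each library, with the number of counts above each bar. IgG is under 1% in the 3 controls, 7.72% in Cre library 1 and over 60% in Cre libraries 2 and 3.

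Within IgG, Ighg2b held the most counts in each Cre library. In Cre libraries 2 and 3 it held 53.5% and 55.0% of their IgG counts, Ighg2c 21.0% and 20.1%, Ighg1 18.5% and 21.6%, and Ighg3 7.01% and 3.27%. Each library is 1 mouse, so these shares are given with no test between them. Cre library 1, with 117 IgG counts, was divided between Ighg2b (49.6%) and Ighg1 (45.3%), with 5 counts of Ighg2c and 1 of Ighg3. Kappa chains made up 88.6 to 96.1% of light chain constant counts in the controls and 92.5 to 96.4% in the Cre libraries, and the ranges overlapped.

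Variable gene counts followed the constant genes. Over the 185 heavy variable rows of the table the sums were 316, 542 and 290 counts in the controls and 310, 1139 and 4109 counts in the Cre libraries. Over 162 kappa variable rows they were 304, 757 and 299 counts and 351, 1402 and 4655 counts. Heavy variable counts per heavy constant count lay between 0.205 and 0.274 in all 6 libraries, and kappa variable counts per Igkc count between 0.637 and 0.875. Igkc per heavy constant count likewise stayed between 0.291 and 0.396. Jchain per count of Igha plus Ighm was 0.123 to 0.167 in the controls and 0.129, 0.367 and 0.301 in the Cre libraries.

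Counts were least concentrated on single variable genes in the libraries rich in IgG. In Cre libraries 2 and 3 the leading heavy variable gene held 6.41% (Ighv1-82) and 8.40% (Ighv5-16) of its class, and the leading 5 held 29.8% and 31.4%. In the controls the leading gene held 20.6% (Ighv5-9-1), 25.6% (Ighv6-3) and 11.4% (Ighv5-17). In Cre library 1 Ighv1-81 alone held 44.5% (exact 95% interval 38.9 to 50.2%, with each read taken as a separate draw). The inverse Simpson index, the number of equally used genes that would give the same concentration, was 10.9, 7.19 and 17.3 in the controls and 4.74, 28.3 and 26.9 in the Cre libraries. For kappa it was 13.8, 4.26 and 14.2 in the controls and 8.29, 25.2 and 26.6 in the Cre libraries. These libraries differ in the counts behind the index, and at a common 290 heavy variable counts the expected number of genes seen was 45.2, 31.1 and 46 in the controls and 46.1, 50.4 and 47.6 in the Cre libraries. At 299 kappa variable counts it was 56.7, 33.9 and 47 in the controls and 44.4, 45.2 and 45.8 in the Cre libraries, so at equal depth the number of kappa genes seen in Cre libraries 2 and 3 lay within the control range.

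The leading heavy variable gene differed in each of the 6 libraries, whereas leading kappa genes were shared between some. Control library 2, the control richest in Ighm, had 330 of its 757 kappa variable counts (43.6%) in Igkv8-30 and 139 heavy variable counts in Ighv6-3. Control library 1 had 2 counts of each of these genes. Igkv8-30 also led control library 3, with 41 counts. Cre library 1 had 138 counts of Ighv1-81 and 110 of Igkv1-110, the latter 31.3% of its kappa variable counts. In Cre library 3 Ighv5-16 had 345 counts and Igkv9-123 had 299, and in Cre library 2 both had 0. Igkv1-117 led the kappa variable genes of control library 1 (57 counts) and of Cre libraries 2 and 3 (92 and 384 counts). Related variable genes share sequence and expressed ones can carry somatic mutations, so the assignment of reads to single variable genes is uncertain.

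**Figure D3:**
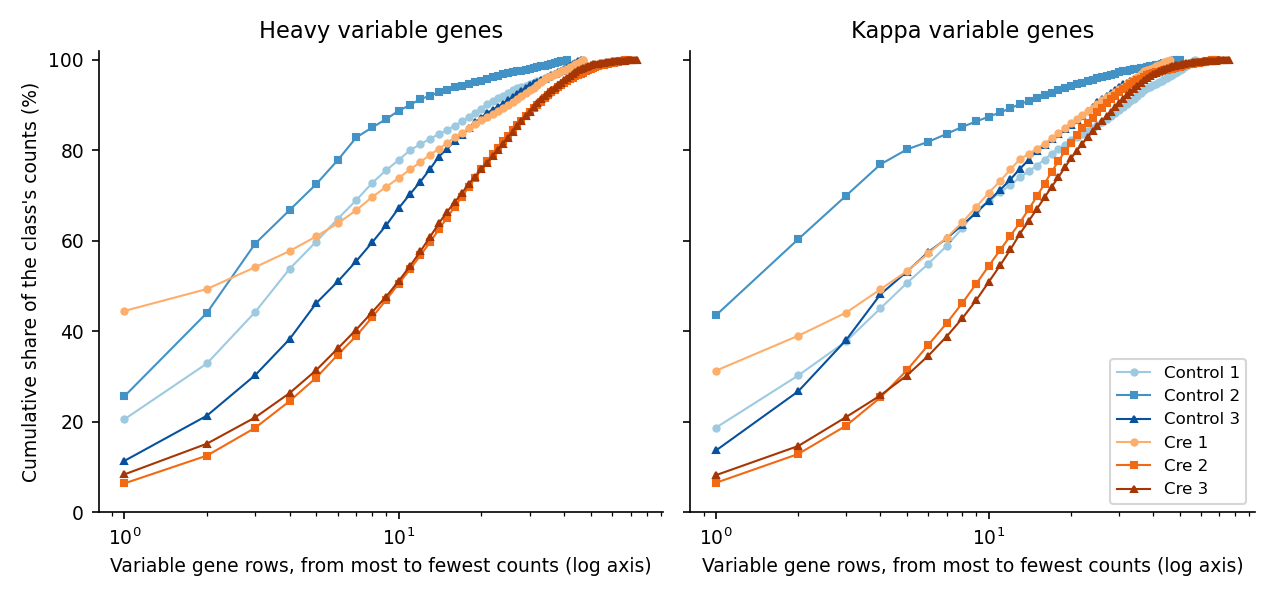
Cumulative share of heavy (left) and kappa (right) variable gene counts against gene rank in each library, rank on a log axis. The curves of Cre libraries 2 and 3 start lowest, at 6.41 to 8.40%, and control library 2 starts at 43.6% in kappa and Cre library 1 at 44.5% in heavy chains.

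Other genes of antibodies and B lineage cells are given from lists of names. Ighg3, the IgG3 heavy chain, had 0, 3 and 3 counts in the controls and 1, 184 and 325 counts in the Cre libraries. Ighd, the IgD heavy chain of naive B cells, was at 2.06, 1.65 and 1.83 CPM and at 2.06, 2.31 and 2.65 CPM. Its log2 fold change was 0.34 ± 0.18 (SE). The groups did not overlap, although Cre library 1 (2.061 CPM) lay just above control library 1 (2.058 CPM). The lambda constant gene Iglc2 was at 0.133, 0.282 and 0.158 CPM and at 0.304, 0.558 and 1.58 CPM, without overlap. Of the 7 other constant genes 4 were tested, and 0 passed edgeR's quasi-likelihood test at an adjusted p under 0.05, which called 0.0066% of all tested genes in each direction. An unadjusted p under 0.05 was reached by 1 higher and 0 lower (6.54% and 6.28% of all tested genes), and DESeq2 called 2 higher and 0 lower (2.23% and 1.32%).

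Among the listed surface and signalling genes of B cells, Blnk differed most between groups. Of 17 listed genes all were tested, and 0 passed edgeR over all genes in either direction. An unadjusted p under 0.05 in edgeR was reached by 4 higher and 0 lower (6.54% and 6.28% of all tested genes). DESeq2 called 1 higher and 0 lower (2.23% and 1.32%). The median log2 fold change of the 17 genes was 0.35, against -0.0019 over all tested genes. Ms4a1, which encodes CD20, was at 1.59, 1.20 and 1.21 CPM in the controls and at 1.47, 2.26 and 3.30 CPM in the Cre libraries. Cre library 3, with 10.1 times the control mean of Igkc, thus had 2.48 times that of Ms4a1. Blnk, an adaptor of B cell receptor signalling that myeloid cells can also express, was at 0.415, 0.399 and 0.387 CPM and at 1.01, 5.36 and 6.51 CPM, and was the gene DESeq2 called. The most abundant of the list, Syk (702 ± 8.22 against 713 ± 14.3 CPM, SD, n = 3) and Cd22 (159 ± 9.51 against 161 ± 8.57 CPM), were at high levels in all the macrophage libraries.

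Of 9 transcription factors of B cells, all tested, 0 passed edgeR over all genes, with a median of 0.44 on the log2 scale. An unadjusted p under 0.05 in edgeR was reached by 2 higher and 1 lower (6.54% and 6.28% of all tested genes). DESeq2 called none (2.23% higher and 1.32% lower over all genes). Pax5, the factor that fixes B cell identity, was at 2.19, 1.73 and 2.20 CPM and at 1.71, 2.57 and 3.47 CPM. Pou2f2, which encodes the octamer-binding factor Oct-2, was at 2.26, 2.81 and 3.83 CPM and at 5.37, 12.1 and 4.92 CPM (log2 fold change 1.34 ± 0.37, SE), highest in Cre library 2 and without overlap. Bach2, a repressor that restrains plasma cell formation, was also higher in Cre without overlap, at 2.80, 3.33 and 3.36 CPM in the Cre libraries (log2 fold change 0.44 ± 0.16, SE). Neither passed edgeR (adjusted p 0.200 and 0.315). The E protein gene Tcf3 (76.9 ± 1.26 against 66.3 ± 3.65 CPM, SD, n = 3) and Foxo1 (19.5 ± 1.81 against 22.5 ± 2.30 CPM) were the most abundant. Tcf3 was lower in each Cre library than in any control (log2 fold change -0.21 ± 0.05, SE), at an adjusted p of 0.185 in edgeR. Genes of the surrogate light chain and recombination list were all under 1 CPM in every library, and 2 of the 8, Vpreb2 and Igll1, had no count at all.

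Genes used as plasma cell markers were in part abundant in macrophages of both genotypes. Of 16 tested, 0 passed edgeR over all genes, with a median of 0.38 on the log2 scale. An unadjusted p under 0.05 in edgeR was reached by 5 higher and 1 lower (6.54% and 6.28% of all tested genes). DESeq2 called 2 higher and 1 lower (2.23% and 1.32%). Xbp1, the factor that enlarges the secretory apparatus, was at 437 ± 17.8 against 459 ± 3.32 CPM (SD, n = 3), and Edem1, of endoplasmic reticulum quality control, at 284 ± 13.9 against 298 ± 5.50 CPM. Prdm1, which encodes Blimp-1, was lower in each Cre library (68.4 ± 8.32 against 54.9 ± 2.62 CPM, SD, n = 3, and -0.32 ± 0.09 on the log2 scale, SE), at an adjusted p of 0.206 in edgeR and 0.0407 in DESeq2.

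Sdc1, the surface proteoglycan syndecan-1, had 46, 56 and 54 counts in the controls and 114, 215 and 306 counts in the Cre libraries. The receptor gene Slamf7 was at 0.730, 0.598 and 0.369 CPM and at 1.27, 11.9 and 15.8 CPM. Neither passed edgeR (adjusted p 0.146 and 0.149), and DESeq2 called both (adjusted p 3.65e-06 and 0.00161). Both genes are also expressed outside plasma cells. Tnfrsf17, which encodes the plasma cell survival receptor BCMA, had 14 counts over all 6 libraries. The name plasma cell therefore rests here on immunoglobulin, Jchain and Mzb1 transcripts, and not on Tnfrsf17, Xbp1 or Prdm1.

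**Figure D4:**
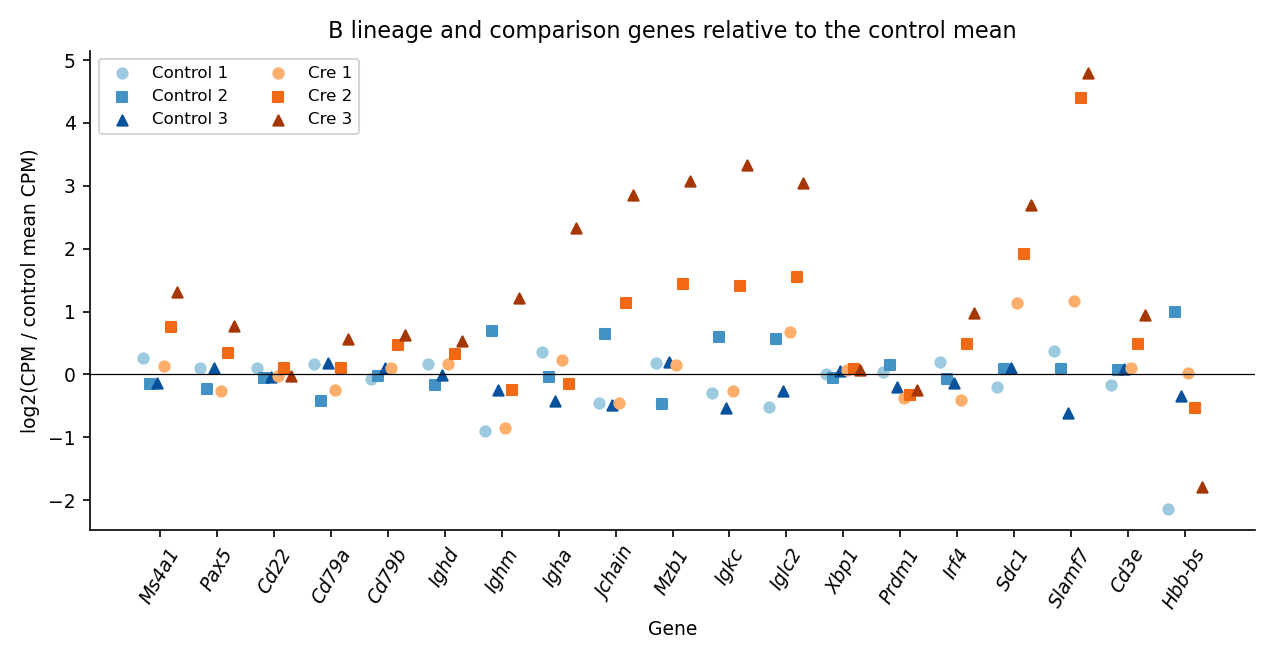
Log2 ratio of each library's CPM to the control mean for B lineage genes and for a T cell and an erythroid gene. In Cre library 3 Igkc, Mzb1 and Jchain lie at 3.34, 3.08 and 2.86, and Cd79a and Cd79b at 0.56 and 0.63. In the same library Hbb-bs lies below 0. Cd3e is there at 1.92 times its control mean, against 1.48 times for Cd79a and 1.55 times for Cd79b. The genes shown were selected with their values known.

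Factors that support B and plasma cells came from a list of 11 genes, of which 7 were tested and 0 passed edgeR. An unadjusted p under 0.05 in edgeR was reached by 0 higher and 1 lower (6.54% and 6.28% of all tested genes). DESeq2 called 0 higher and 1 lower (2.23% and 1.32%). Tnfsf13b, the B cell survival factor BAFF, was lower in each Cre library than in any control, at 10.5, 11.3 and 4.73 CPM against 3.33, 1.27 and 3.23 CPM. The difference was -1.77 ± 0.43 on the log2 scale (SE). Its adjusted p was 0.170 in edgeR and 0.0450 in DESeq2. The related factor APRIL, Tnfsf13, was at 18.5 ± 2.25 against 18.0 ± 1.29 CPM (SD, n = 3).

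Markers of other cells were compared with the immunoglobulin pattern. Erythroid genes, as a sign of blood, summed to 2.27, 15.1 and 5.95 CPM in the controls and to 7.82, 5.33 and 2.78 CPM in the Cre libraries, so the library richest in IgG was second lowest in erythroid transcripts. Of 13 T cell markers, all tested, 0 passed edgeR, DESeq2 called Il7r and Cd4 higher (2.23% of all genes), 5 were higher without overlap (8.61% of all genes), and none was at 0 in all libraries. Their sum was at 3.92 to 4.48 CPM in the controls and at 5.12 to 25.0 CPM in the Cre libraries. In Cre library 3 Il7r, which other cells also express, gave 16.9 CPM of that sum, and Cd3e, which defines T cells, was at 0.575 CPM against 0.266 to 0.317 CPM in the controls. In the lists of cells other than B lineage cells, T cells and alveolar macrophages, 0 genes passed edgeR, and DESeq2 called 5. Of 7 monocyte genes it called 1 higher and 1 lower, and of 7 endothelial genes 1 higher. Of 10 dendritic cell genes and 7 airway genes it called 1 lower each. It called 0 in the lists of natural killer cells (8 genes), neutrophils (11), eosinophils (4), alveolar type 2 cells (7), fibroblasts (6) and erythroid cells (5). Over all genes it called 2.23% higher and 1.32% lower. Chil3, which alveolar macrophages themselves express strongly, was higher in Cre, at 14624, 14415 and 17826 CPM in the controls and at 18919, 27932 and 32937 CPM in the Cre libraries. Vwf, of the endothelial list, was at 117 to 136 CPM in the controls and at 151 to 179 CPM in the Cre libraries. The other genes of that list reached at most 9.26 CPM (Cdh5) and overlapped between groups. Lower in Cre were Tppp3 of the airway list (315 to 353 against 168 to 210 CPM), the dendritic cell gene Clec9a (3.62 to 5.92 against 2.31 to 3.42 CPM) and the monocyte gene Vcan (2.39 to 4.27 against 1.21 to 1.82 CPM). No other gene of these 3 lists was lower without overlap. The other airway genes reached at most 9.60 CPM (Scgb1a1). Vwf and Tppp3 are therefore not read here as amounts of endothelial or airway cells. The part of any of these cells in the immunoglobulin values was not tested.

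Genes outside the immunoglobulin loci were ranked by likeness to IgG and Igkc. Over 15104 tested such genes, 151 (1.00%) had a Pearson correlation of at least 0.95 with the sum of Ighg1 and Ighg2b on the log2(CPM + 0.5) scale over the 6 libraries, and 49 (0.324%) with Igkc. The 8 most like IgG were C1qb, Csf1, C1qc, AA467197, Cd38, Cpne2, Inhba and Mmp12 (0.993 to 0.998). C1qb, a chain of complement C1q, was at 0.830, 0.947 and 0.739 CPM in the controls and at 1.91, 10.2 and 23.4 CPM in the Cre libraries, and Csf1, the macrophage growth factor M-CSF, at 1.49, 1.13 and 1.21 CPM and at 2.38, 8.89 and 16.8 CPM. The 8 most like Igkc (0.979 to 0.998) included Srgn, Gm38335, Zfp583, Ctse, Wfs1, Usp18 and Chst2. Among the members Jchain was closest to Igkc (0.996) and Cd79a farthest (0.576). The correlations rest on 6 libraries that share genotype groups and are descriptions. Car4 was at 40.2, 46.9 and 36.2 CPM in Cre libraries 1, 2 and 3.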

How the data were processed

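The authors deposited whole-number counts per gene without normalization, 1 column a library. Each column was matched to its mouse by the library name that the labels give. The submitters' processing notes name STAR 2.6.1, featureCounts 1.6.4 and the build GRCm38, with no role for each. The annotation release was not given in the sources used here. All 10 members had the same identifier and symbol in GENCODE M21.

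Counts were analysed with edgeR 4.0.16 in R 4.3.3 (filterByExpr with a minimum count of 10, TMM factors of 0.986 to 1.015, glmQLFit and glmQLFTest, two-sided, Benjamini-Hochberg over 15147 genes, threshold 0.05), and the code was tested on simulated data. Standard errors are the absolute log2 fold change over the square root of F. DESeq2 1.42.0 and limma-voom (limma 3.58.1) were alternatives. Where a symbol had several rows, the one with most counts was used. Exact (Clopper-Pearson) 95% intervals came from scipy 1.17.1. Replicates were not duplicates (chi-square per degree of freedom 21.7 to 57.5). The labels do not tie mice to litters or days.

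Members and lists were chosen with earlier results of these data known. The genes named were all members, the leading variable genes of each library, the 8 genes most like Igkc or IgG, and the 2 most abundant and any called genes of each list. Others were chosen after their values were seen. Some genes that this rule names are not reported here.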

Additional observations from a re-analysis of the deposited data

How the results depend on the processing

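With 3 libraries a group, of which Cre library 1 lay near the controls for most members, the counts of called genes depended on the settings. edgeR called 1 gene higher (Plcb4) and 1 lower (Car4). Without a filter on low counts it called 340 and 183, and DESeq2 called 373 and 220. With the replicate number as a block it called 8 and 2; the pairing has no basis in the labels, same-numbered libraries had correlations of -0.03, -0.19 and 0.04, and not every library correlated best with its own number. Leaving out 1 library at a time gave 1 to 249 genes higher and 0 to 52 lower, with the highest counts without Cre library 1 (249 higher) and control library 3 (52 lower). Members without overlap and higher in Cre numbered 3 to 7 when 1 library was left out, with 7 without Cre library 1, and 0 were lower in each such setting. With fewer libraries more genes separate: the share of all tested genes higher in Cre without overlap was 11.8 to 15% in these settings, against 8.61% with all 6. The log2 fold changes of Ighm and Cd79a changed sign without Cre library 3, to -0.52 and -0.062, and ranged up to 0.84 and 0.34 when other libraries were left out. Those of the other tested members stayed positive in all alternatives run. The cause of these shifts was not tested. Depth limits Ighg1, Ighg2b and Ighg2c in the controls, where most values lie at or under 3 counts.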
